A study of Glycine max with 12 samples.

Results

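Soybean roots (Glycine max, cultivar Williams 82) exposed to cadmium in the presence of the bacterium Oceanobacillus picturae (Cd+OP) were compared with roots exposed to cadmium alone (Cd). The comparison takes 6 of the 12 libraries of the series, 3 per group. Of the 49128 genes in the deposited table it covers the 30340 whose level averaged at least 1 FPKM over the 12 libraries, FPKM being a level scaled for gene length and for the depth of the library. The other 6 libraries, 3 from roots given the bacterium without cadmium (control+OP) and 3 from roots given neither (control), shared the fit and were used to place the levels. The series title names the bacterium, which the group labels shorten to OP, and asks whether it relieves cadmium stress in soybean seedlings. A treatment note of 70 mg/L Cd stands on every sample, control samples included, and could not be tied to a group. Plant age, the length of exposure, the inoculation and the number of plants behind a library were not given in the sources used here.

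Cadmium has no known function in higher plants. It enters roots through transporters of zinc, iron and manganese, binds thiol groups and slows root growth. Passage towards the shoot is limited at the endodermis, where the Casparian strip, a lignified band, and suberin lamellae seal the cell wall, and by chelation with thiol peptides that are stored in vacuoles. Oceanobacillus is a genus of salt-tolerant Bacillaceae and does not belong to the rhizobia, which form nitrogen-fixing nodules on soybean.

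Summed estimated counts were 50444683 to 53797363 in the Cd+OP libraries and 51768348 to 52862699 in the Cd libraries. Across tested genes log2 counts scaled to library size (CPM) correlated between 2 libraries at 0.989 to 0.991 within Cd+OP, 0.985 to 0.987 within Cd, and 0.871 to 0.884 between the groups. Ribosomal RNA genes held 0.317, 0.706 and 0.368% of the counts in the Cd+OP libraries and 0.317, 0.329 and 0.296% in the Cd libraries. Without the Cd+OP library at 0.706%, 10571 genes were called higher and 10053 lower. P-values measure only the spread between these libraries, because no label states that the 3 samples of a group were grown as separate plants. A level written with ± is a group mean with its SD (n = 3), and a log2 fold change written with ± has its standard error.

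The bacterium went with a change in most genes, and the large changes were mainly upward. Of the 30340 genes tested, edgeR's quasi-likelihood test called 21553 (71.0%) at an adjusted p below 0.05. Of these, 11055 (36.4% of those tested) were higher and 10498 (34.6%) lower in Cd+OP than in Cd roots. A change under 1.5-fold made up 10059 of the calls. At least 2-fold differences were called for 4410 genes upward (14.5%) and 1580 downward (5.21%), at least 4-fold for 1790 and 254, and at least 16-fold for 278 and 23. The values of the 3 Cd+OP libraries and the 3 Cd libraries did not overlap for 22110 genes (72.9%). Set against control roots in the same fit, 1633 genes (5.38%) were called at least 2-fold higher and 1486 (4.90%) at least 2-fold lower in Cd+OP roots, and 2608 (8.60%) and 4962 (16.4%) in Cd roots. These comparisons share libraries with the first. With so many genes called, the shares 36.4% and 34.6% are the background for each gene list described in Cd+OP against Cd. For counts of at least 2-fold changes the background is 14.5% upward and 5.21% downward. The median log2 fold change over all genes was 0. In RNA from whole roots, fewer cells of a type and less RNA per cell cannot be told apart.

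**Figure D1:**
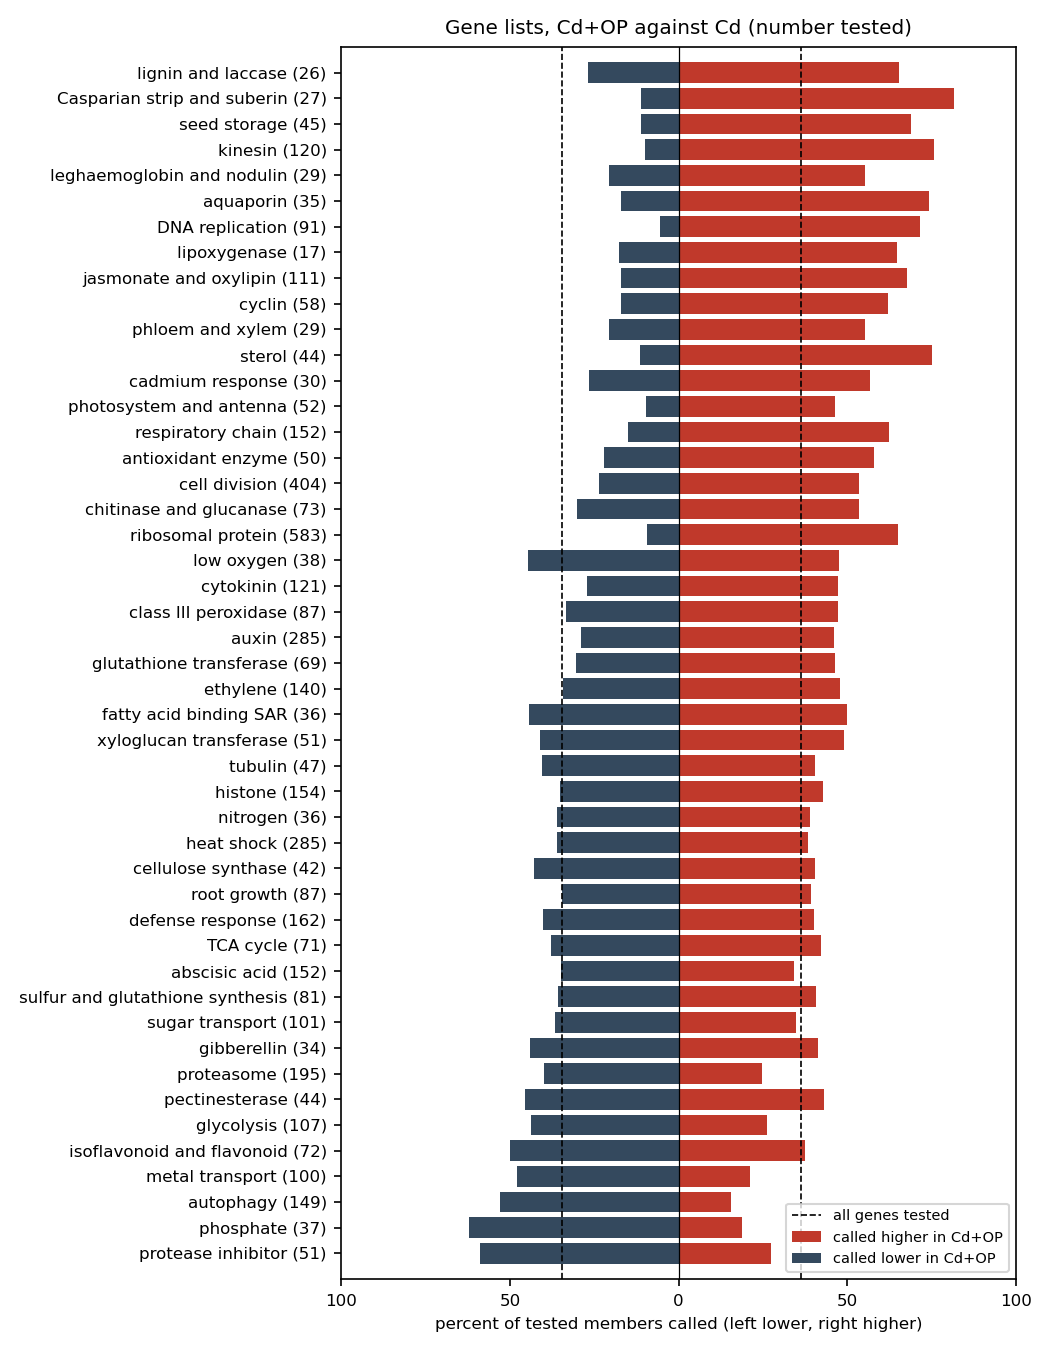
Share of the tested members of each gene list called higher (red, to the right) or lower (dark blue, to the left) in Cd+OP than in Cd roots, in percent, with the number of tested members in brackets and lists ordered by median log2 fold change. Dashed lines mark the shares over all genes tested, 36.4% higher and 34.6% lower. Casparian strip and suberin genes reach 81.5% higher, and phosphate genes 62.2% lower.

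Of the 6 most abundant genes that fell at least 2-fold with the bacterium, 4 lie in runs of neighbouring genes. The first family carries the terms fatty acid binding and systemic acquired resistance, the spread of pathogen resistance from an infected organ to distant ones. GLYMA_18G032500 had 206, 207 and 195 FPKM in the Cd+OP roots and 2711, 3020.2 and 3082 FPKM in the Cd roots. The 2 groups were far apart, with no overlap (log2 fold change -3.93 ± 0.0638, edgeR adjusted p = 3.80e-25). In roots without cadmium this gene had 60.9 ± 7.74 FPKM in control+OP roots and 36.5 ± 3.04 FPKM in control roots, so that the Cd+OP level lay below the Cd level and above both of these. On chromosome 11 a gene with the same annotation, GLYMA_11G225000, had 213, 218 and 219.9 FPKM in the Cd+OP roots and 2607, 2789 and 2849.8 FPKM in the Cd roots (log2 fold change -3.74 ± 0.0563, edgeR adjusted p = 9.91e-26). Over the list of fatty acid binding genes, 18 of 36 tested members were called higher and 16 lower, the median was 0.12 and the quartiles were -3.55 and 1.2. The list thus held members of both directions. GLYMA_18G190000, for example, rose to 609.8 ± 2.54 FPKM in Cd+OP roots, against 159 ± 9.85 FPKM in Cd roots (log2 1.86 ± 0.0375, edgeR adjusted p = 2.22e-23).

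On chromosome 18, 9 tested genes of that annotation follow each other by start position between 2507213 and 2549732 (genome build not given in the sources used here). GLYMA_18G032900 (2534611 to 2535525) lies inside GLYMA_18G032800 (2532184 to 2541397), so their levels may not be separate. All 9 were at least 4-fold lower in Cd+OP roots, with log2 fold changes of -4.44 to -2.73 and a median of -3.98. Their mean levels ranged from 13.1 FPKM (GLYMA_18G032900) to 366 FPKM (GLYMA_18G033200) in Cd+OP roots, and in Cd roots from 197 FPKM for the first to 2938 FPKM for GLYMA_18G032500. Neighbouring copies can share reads, and how such reads were assigned was not given in the sources used here, so the split between copies is uncertain.

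Protease inhibitors, which block digestive enzymes of insects and microbes and the plant's own proteases, were a second family with runs of neighbouring genes that fell, at lower levels. GLYMA_09G163000 had 37.8, 34.1 and 35 FPKM in the Cd+OP roots and 732, 788 and 781 FPKM in the Cd roots (log2 fold change -4.50 ± 0.0657, edgeR adjusted p = 5.85e-26). It belongs to 8 consecutive tested inhibitor genes on chromosome 9 (38692452 to 38807557) with log2 fold changes of -5.70 to -3.03. Nearby GLYMA_09G163800, the most abundant inhibitor in Cd roots among those named here, fell to 171 ± 1.88 FPKM in Cd+OP roots, against 1089.9 ± 46.0 FPKM in Cd roots (log2 -2.75 ± 0.0464, edgeR adjusted p = 7.71e-25). A further 3 neighbouring inhibitor genes on chromosome 16 (37057124 to 37072040) changed by -3.15 to -2.69, GLYMA_16G212400 among them with 28.4 ± 1.19 FPKM in Cd+OP roots and 239 ± 19.1 FPKM in Cd roots. Over the list, 14 of 51 tested members were called higher and 30 lower in Cd+OP, with a median log2 fold change of -0.50. The summed level of all 75 members was 2433 to 2475 FPKM in Cd+OP libraries and 7486 to 7814 FPKM in Cd libraries, and it was 1956 to 1982 FPKM with the bacterium alone and 2686 to 2813 FPKM in control. GLYMA_08G341400, elsewhere in the genome, differed less, with 243 ± 4.33 FPKM in Cd+OP roots and 444 ± 8.95 FPKM in Cd roots (log2 -0.94 ± 0.0294, edgeR adjusted p = 1.94e-19).

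The third set carries the broad term anatomical structure morphogenesis and is shared by most genes of 2 runs of 5 tested genes, on chromosome 5 (6394418 to 6457090) and chromosome 17 (12106586 to 12153374). GLYMA_05G065300 had 253, 252 and 252 FPKM in the Cd+OP roots and 2832, 2922 and 2762 FPKM in the Cd roots (log2 fold change -3.56 ± 0.0646, edgeR adjusted p = 2.97e-24). On chromosome 17, GLYMA_17G147400 had 352, 355 and 348 FPKM in the Cd+OP roots and 2801, 2854 and 2743 FPKM in the Cd roots (log2 fold change -3.07 ± 0.0494, edgeR adjusted p = 3.46e-25). In neither gene did the groups overlap. The chromosome 17 run moved evenly, with a median log2 fold change of -2.83 and a range of -3.07 to -2.60. In it GLYMA_17G146900 lies inside GLYMA_17G146700, so the levels of these genes may not be separate. The chromosome 5 run was less even, from -4.44 to -2.24, and its weakest member GLYMA_05G065800 stayed low in both groups, at 0.432 FPKM in Cd+OP roots and 1.95 FPKM in Cd roots. The files give no symbol or narrower function for these genes.

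Abscisic acid is the hormone of water deficit, and its receptors act by inhibiting a protein phosphatase. Genes annotated with abscisic acid binding and phosphatase inhibition, terms that are also given to stress-related proteins of the same fold, included several of the large decreases. GLYMA_09G040400 had 39.0, 39.5 and 38.3 FPKM in the Cd+OP roots and 567, 591 and 528 FPKM in the Cd roots (log2 fold change -3.92 ± 0.0492, edgeR adjusted p = 7.23e-27). GLYMA_07G243500 fell to 154 ± 4.01 FPKM in Cd+OP roots, against 601 ± 60 FPKM in Cd roots (log2 -2.04 ± 0.0552, edgeR adjusted p = 9.44e-21). GLYMA_04G009400, annotated with cold acclimation and responses to water deprivation and abscisic acid, was one of the most abundant genes to fall, with 844 ± 5.47 FPKM in Cd+OP roots and 1711 ± 55.6 FPKM in Cd roots (log2 -1.09 ± 0.0307, edgeR adjusted p = 2.02e-20). The whole abscisic acid list did not lean either way, with 52 of 152 tested members called higher, 53 lower and a median of -0.01.

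**Figure D2:**
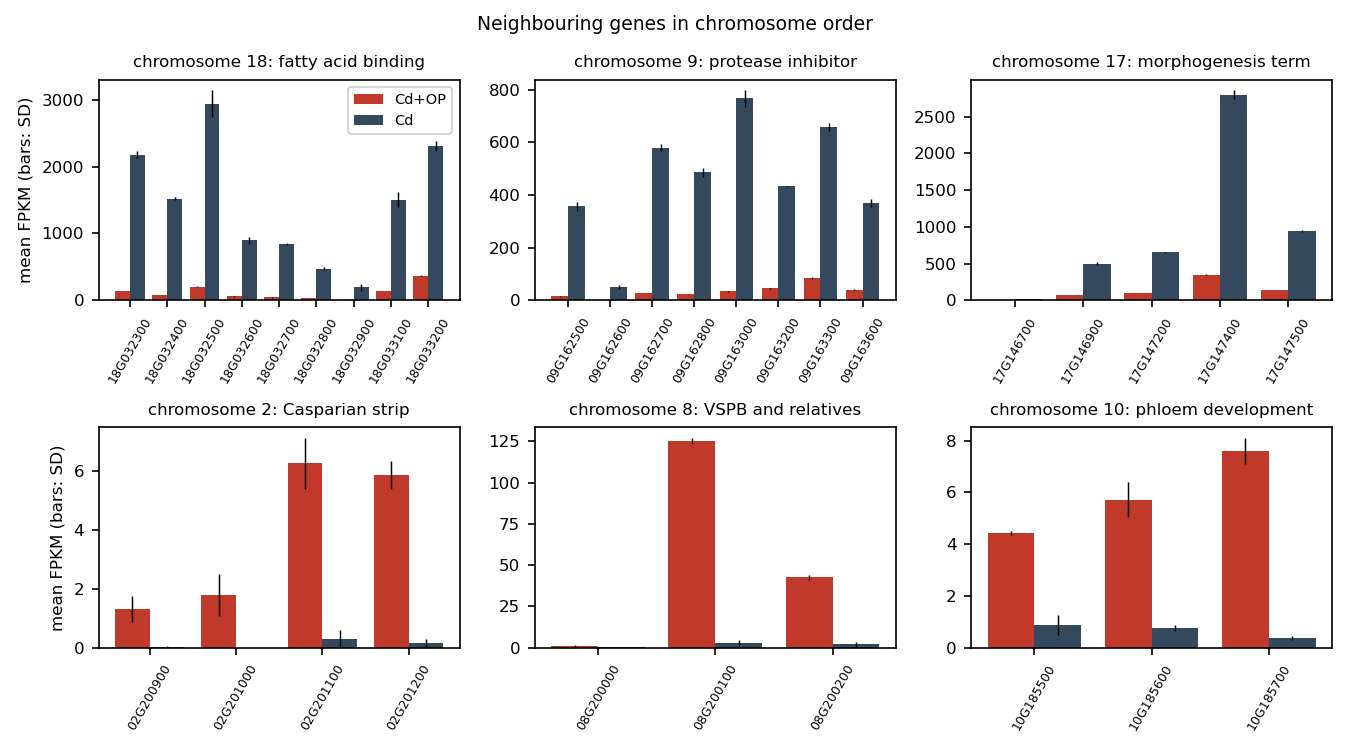
Mean FPKM in Cd+OP roots (red) and Cd roots (dark blue) of neighbouring genes in chromosome order, with error bars showing the SD of 3 libraries, each panel on its own linear axis from 0. The 9 fatty acid binding, 8 protease inhibitor and 5 morphogenesis genes are lower in Cd+OP roots, and the Casparian strip, VSPB and phloem development genes are higher. GLYMA_02G201000 is listed at 0 in all 3 Cd libraries.

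Lipoxygenases add oxygen to polyunsaturated fatty acids, the first step towards jasmonate and other oxylipins, which are wound and defence signals. Among genes at least 2-fold higher in Cd+OP, the lipoxygenase GLYMA_13G347700 was one of the 6 most abundant. It had 696, 695 and 686 FPKM in the Cd+OP roots and 68.2, 67.3 and 74.4 FPKM in the Cd roots (log2 fold change 3.23 ± 0.0346, edgeR adjusted p = 3.12e-28). The control+OP libraries had a mean of 719.7 ± 15.2 FPKM, and control roots had 936 ± 33.4 FPKM. On chromosome 15, the lipoxygenase GLYMA_15G026400 rose to 52.7 ± 1.11 FPKM in Cd+OP roots, against 4.23 ± 0.397 FPKM in Cd roots (log2 3.57 ± 0.0480, edgeR adjusted p = 1.57e-26). Next to it GLYMA_15G026500, annotated with oxylipin synthesis, rose to 69.6 ± 3.03 FPKM in Cd+OP roots, against 4.04 ± 0.786 FPKM in Cd roots (log2 4.04 ± 0.0713, edgeR adjusted p = 1.71e-24). Members that fell were less abundant, such as GLYMA_03G264300 with 8.32 ± 0.346 FPKM in Cd+OP roots and 23.6 ± 0.857 FPKM in Cd roots (log2 -1.58 ± 0.0652, edgeR adjusted p = 6.14e-17). Of the lipoxygenase genes, 11 of 17 were called higher and 3 lower (median 0.83).

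The wider jasmonate and oxylipin list had 75 of 111 tested members called higher and 19 lower (median 0.83), and 53 and 3 of them by at least 2-fold. Its summed level was 7496 to 7634 FPKM in Cd+OP libraries and 2697 to 2865 FPKM in Cd libraries. GLYMA_15G179600 and GLYMA_09G071600 carry terms for wounding and regulation of defence and were among its most abundant members. The first had 422 ± 8.30 FPKM in Cd+OP roots and 200.5 ± 10 FPKM in Cd roots (log2 1.0 ± 0.0340, edgeR adjusted p = 9.60e-19), and the second 388 ± 9.33 FPKM in Cd+OP roots and 269.9 ± 14.8 FPKM in Cd roots (log2 0.45 ± 0.0356, edgeR adjusted p = 2.89e-11).

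Vegetative storage proteins are nitrogen stores of soybean that respond to jasmonate and wounding. VSPB (GLYMA_08G200100) had 127, 126 and 123 FPKM in the Cd+OP roots and 0.798, 1.98 and 4.86 FPKM in the Cd roots. The Cd libraries were unequal, yet none came near the Cd+OP libraries (log2 fold change 5.54 ± 0.204, edgeR adjusted p = 5.61e-18). Its neighbour GLYMA_08G200200, an acid phosphatase-type relative, rose to 42.6 ± 1.39 FPKM in Cd+OP roots, against 1.92 ± 1.28 FPKM in Cd roots (log2 4.40 ± 0.158, edgeR adjusted p = 3.23e-18). VSPA (GLYMA_07G014500), on another chromosome, had 6.48 ± 0.152 FPKM in Cd+OP roots and 0.447 ± 0.478 FPKM in Cd roots (log2 3.76 ± 0.311, edgeR adjusted p = 7.33e-11). In roots without cadmium VSPB had 124 ± 3.22 FPKM in control+OP roots and 20.3 ± 1.75 FPKM in control roots, and GLYMA_08G200200 had 180.2 ± 2.14 FPKM in control+OP roots and 17.3 ± 1.08 FPKM in control roots.

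Other hormone lists had members of both directions. Ethylene, a gas hormone of stress and root growth, acts through transcription factors that are numerous in soybean, and 67 of 140 tested genes of its list were called higher and 48 lower (median 0.14). GLYMA_03G111700 rose to 106 ± 1.83 FPKM in Cd+OP roots, against 8.66 ± 0.418 FPKM in Cd roots (log2 3.54 ± 0.0531, edgeR adjusted p = 9.74e-26), and the abundant GLYMA_05G186700 had 174 ± 3.10 FPKM in Cd+OP roots and 55.1 ± 2.42 FPKM in Cd roots (log2 1.58 ± 0.0371, edgeR adjusted p = 5.05e-22). GLYMA_06G163700 moved the other way, with 0.736 ± 0.181 FPKM in Cd+OP roots and 9.53 ± 1.05 FPKM in Cd roots (log2 -3.74 ± 0.204, edgeR adjusted p = 1.88e-14). For auxin, which patterns root growth, 131 of 285 were called higher and 83 lower. The amino acid and auxin transport gene GLYMA_16G062600 fell to 113 ± 4.35 FPKM in Cd+OP roots, against 356 ± 8.28 FPKM in Cd roots (log2 -1.73 ± 0.0341, edgeR adjusted p = 1.53e-23). For cytokinin, 57 of 121 were called higher and 33 lower.

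In gibberellin metabolism, where 14 of 34 genes were called higher and 15 lower, GLYMA_13G259400 encodes a gibberellin 2-beta-dioxygenase, an enzyme that inactivates the hormone, and had 158, 156 and 157 FPKM in the Cd+OP roots and 29.9, 32.3 and 31.1 FPKM in the Cd roots. Its groups did not overlap (log2 fold change 2.26 ± 0.0359, edgeR adjusted p = 2.55e-25), and the level in Cd+OP roots was also above the 131 ± 2.50 FPKM of control+OP and 92.7 ± 4.62 FPKM of control roots. GLYMA_08G208300, a 3-beta-dioxygenase of the kind that makes active gibberellin, fell to 2.43 ± 0.333 FPKM in Cd+OP roots, against 19.2 ± 0.370 FPKM in Cd roots (log2 -3.05 ± 0.121, edgeR adjusted p = 2.74e-17). The list of defense response genes was split evenly, with 65 of 162 called in each direction and a median of 0.02. The defense response gene GLYMA_08G230500, among the 6 most abundant genes with at least a 2-fold rise, had 1084, 1118 and 1059 FPKM in the Cd+OP roots and 279, 299 and 302 FPKM in the Cd roots (log2 fold change 1.82 ± 0.0314, edgeR adjusted p = 1.14e-24). GLYMA_15G217100 rose to 155 ± 1.51 FPKM in Cd+OP roots, against 7.32 ± 1.85 FPKM in Cd roots (log2 4.33 ± 0.0836, edgeR adjusted p = 1.01e-23).

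Genes of the endodermal barrier were mostly higher with the bacterium, at low levels. Over the Casparian strip and suberin list, 22 of 27 tested members were called higher and 3 lower in Cd+OP, with a median log2 fold change of 2.26, and 18 members rose at least 2-fold. GLYMA_02G201100 had 5.98, 5.61 and 7.26 FPKM in the Cd+OP roots and 0, 0.303 and 0.591 FPKM in the Cd roots (log2 fold change 4.31 ± 0.356, edgeR adjusted p = 6.85e-11). It is the third of 4 neighbouring Casparian strip genes on chromosome 2 (38467315 to 38504836), all higher in Cd+OP roots. In the fourth, GLYMA_02G201200, the levels were 5.92, 6.33 and 5.38 FPKM in Cd+OP roots and 0, 0.312 and 0.122 FPKM in Cd roots, while GLYMA_02G201000 had 1.17, 2.57 and 1.59 FPKM in Cd+OP libraries and is listed at 0 in all 3 Cd libraries. On chromosome 13, GLYMA_13G315000 had 3.91 ± 0.438 FPKM in Cd+OP roots and 0.0884 ± 0.153 FPKM in Cd roots. Casparian strip proteins are membrane scaffolds that place the lignin-building enzymes of the endodermis.

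Abundant members of that list behaved differently. GLYMA_03G160200, a monooxygenase, had 69.7 ± 2.04 FPKM in Cd+OP roots and 45.8 ± 1.90 FPKM in Cd roots (log2 0.53 ± 0.0366, edgeR adjusted p = 1.79e-12), and GLYMA_09G123800, a calcium-binding peroxygenase, fell to 7.62 ± 0.414 FPKM in Cd+OP roots, against 30.4 ± 2.07 FPKM in Cd roots (log2 -2.07 ± 0.0705, edgeR adjusted p = 1.12e-18). When testing was limited to genes that averaged 5 FPKM or more, 6 members were left, 2 called higher and 3 lower, and the median was -0.05. The upward lean of the list therefore rests on genes of low level. The summed level of all 54 members was 298 to 302 FPKM in Cd+OP libraries and 231 to 237 FPKM in Cd libraries, with 1 member listed at 0 in all 6.

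Laccases are secreted copper enzymes that couple lignin precursors in the wall. In the lignin and laccase list 17 of 26 tested members were called higher and 7 lower in Cd+OP, with a median log2 fold change of 2.39, but with a mean of at least 5 FPKM only 1 of 9 was called higher and 7 lower, and the median was -0.38. The laccase-type GLYMA_14G198900, a low gene, had 3.46 ± 0.673 FPKM in Cd+OP roots and 0.132 ± 0.0301 FPKM in Cd roots (log2 4.59 ± 0.201, edgeR adjusted p = 2.11e-16). The more abundant GLYMA_18G193400 had 13.7, 13.6 and 14.5 FPKM in the Cd+OP roots and 69.6, 64.8 and 71.7 FPKM in the Cd roots, without overlap and in the other direction (log2 fold change -2.37 ± 0.0468, edgeR adjusted p = 1.53e-23). GLYMA_14G221200, a cinnamyl alcohol dehydrogenase, which makes lignin precursors, was the abundant member that rose. Its levels were 205, 204 and 210.3 FPKM in the Cd+OP roots and 71.3, 66.3 and 67.9 FPKM in the Cd roots (log2 fold change 1.52 ± 0.0361, edgeR adjusted p = 6.61e-22).

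Class III peroxidases, which use hydrogen peroxide to cross-link or loosen walls, moved both ways, with 41 of 87 called higher, 29 lower and a median of 0.17. GLYMA_16G164400 had 515, 498 and 497 FPKM in the Cd+OP roots and 89.8, 90.7 and 100.5 FPKM in the Cd roots. The Cd+OP libraries lay far above the Cd libraries (log2 fold change 2.35 ± 0.0377, edgeR adjusted p = 2.99e-25). GLYMA_13G307000 rose to 162 ± 3.51 FPKM in Cd+OP roots, against 48.5 ± 1.31 FPKM in Cd roots (log2 1.67 ± 0.0362, edgeR adjusted p = 9.95e-23). GLYMA_08G179700 and GLYMA_15G052700 fell, with log2 fold changes of -1.16 ± 0.0379 (edgeR adjusted p = 4.31e-19) and -0.77 ± 0.0332 (edgeR adjusted p = 1.34e-16). The first had 107 ± 1.65 FPKM in Cd+OP roots and 229 ± 4.80 FPKM in Cd roots, and the second 187 ± 5.42 FPKM in Cd+OP roots and 304 ± 8.78 FPKM in Cd roots. Cellulose synthases, which spin the main wall fibre, also divided. Of 42 tested, 17 were called higher and 18 lower.

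Within the cellulose synthases, level went with direction. The 4 most abundant called members all fell, the highest of them, GLYMA_05G187300, to 126 ± 1.44 FPKM in Cd+OP roots, against 159.8 ± 2.02 FPKM in Cd roots (log2 -0.42 ± 0.0302, edgeR adjusted p = 5.01e-12). Members with the largest rises were low. GLYMA_02G205800 had 2.14 ± 0.149 FPKM in Cd+OP roots and 0.102 ± 0.0534 FPKM in Cd roots and GLYMA_03G217500 3.63 ± 0.382 FPKM in Cd+OP roots and 0.223 ± 0.0865 FPKM in Cd roots (log2 4.28 ± 0.192 and 3.92 ± 0.157, edgeR adjusted p = 3.32e-16 and 3.01e-17). The summed level of the list was 659.5 to 668 FPKM in Cd+OP libraries and 911 to 933 FPKM in Cd libraries.

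Phloem carries sugars into the root. Genes annotated with phloem development that rose included GLYMA_02G000700 with 16.5, 18 and 17.3 FPKM in the Cd+OP roots and 2.18, 2.42 and 2.86 FPKM in the Cd roots (log2 fold change 2.72 ± 0.0649, edgeR adjusted p = 6.87e-22) and GLYMA_10G000500 with 14.3 ± 0.312 FPKM in Cd+OP roots and 2.62 ± 0.0762 FPKM in Cd roots (log2 2.38 ± 0.0551, edgeR adjusted p = 3.83e-22). A run of 3 such genes on chromosome 10 (41849517 to 41870846) had log2 fold changes of 2.24, 2.83 and 4.30, and the last, GLYMA_10G185700, had 7.60 ± 0.514 FPKM in Cd+OP roots and 0.362 ± 0.0743 FPKM in Cd roots. Over all phloem and xylem genes, 16 of 29 tested members were called higher and 6 lower in Cd+OP, with a median log2 fold change of 0.65. This median was 1.01 without the second Cd library, 1.73 with no filter on level and 2.32 among genes that averaged 5 FPKM or more.

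Some groups of genes used in dividing cells leaned upward with the bacterium, and others did not. Kinesins, the motors that move along the microtubules of the spindle and the cell plate, were called higher in 91 of 120 members and lower in 12 (median 1.24). Cyclin-type regulators, which switch on the kinases of the cell cycle, were higher in 36 of 58 and lower in 10 (median 0.69), and the DNA replication machinery in 65 of 91 and 5 (median 0.90). At least 2-fold rises were called for 66 kinesins, 26 cyclins and 42 replication genes, and at least 2-fold falls for 0 in each list. The corresponding background was 14.5% upward and 5.21% downward. The broader cell division list leaned less, with 216 of 404 called higher and 95 lower (median 0.34). Tubulins, the subunits of microtubules, were divided, with 19 of 47 called higher and 19 lower (median 0.08), and histones and other nucleosome genes, which package DNA, had 66 of 154 higher and 54 lower (median 0.08). Among genes that averaged 5 FPKM or more the kinesin median was 0.59 (16 higher and 7 lower of 25) and the cell division median 0.06 (85 and 64 of 184).

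The cyclin-type gene GLYMA_03G123600 had 15.8, 14.7 and 15.1 FPKM in the Cd+OP roots and 0.641, 0.254 and 0.826 FPKM in the Cd roots (log2 fold change 4.64 ± 0.160, edgeR adjusted p = 1.42e-18), and its levels without cadmium were 23.5 ± 1.68 FPKM in control+OP roots and 18.8 ± 1.42 FPKM in control roots. GLYMA_18G133100 rose to 21.9 ± 0.341 FPKM in Cd+OP roots, against 6.45 ± 0.579 FPKM in Cd roots (log2 1.69 ± 0.0555, edgeR adjusted p = 5.29e-19). GLYMA_05G097300 fell, to 12 ± 0.431 FPKM in Cd+OP roots, against 15.6 ± 0.261 FPKM in Cd roots (log2 -0.46 ± 0.0755, edgeR adjusted p = 8.53e-06). Kinesin GLYMA_10G154200 had 3.88 ± 0.211 FPKM in Cd+OP roots and 0.146 ± 0.0391 FPKM in Cd roots (log2 4.64 ± 0.153, edgeR adjusted p = 5.28e-19). GLYMA_01G046400, of the complex that marks replication origins, had 3.42 ± 0.572 FPKM in Cd+OP roots and 0.540 ± 0.0685 FPKM in Cd roots (log2 2.56 ± 0.220, edgeR adjusted p = 1.46e-10). Of the 4 most abundant called kinesins, GLYMA_07G246800, GLYMA_15G148800 and GLYMA_17G027200 fell by 0.31, 0.37 and 0.25 on the log2 scale (edgeR adjusted p = 1.49e-05, 9.49e-09 and 1.81e-04).

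Ribosomal protein genes were higher in 379 of 583 members and lower in 55, by small steps (median 0.28). Only 35 were at least 2-fold higher, a smaller share than the 14.5% of all genes tested. The respiratory chain of mitochondria, which turns reduced carbon into ATP, had 95 of 152 genes called higher and 23 lower (median 0.40). GLYMA_10G277900, a complex I gene, had 142, 138 and 144 FPKM in the Cd+OP roots and 60.6, 67.4 and 63.4 FPKM in the Cd roots (log2 fold change 1.08 ± 0.0488, edgeR adjusted p = 4.27e-16). GLYMA_20G177700, of the ATP synthase stalk, rose to 108 ± 3.41 FPKM in Cd+OP roots, against 51.9 ± 1.67 FPKM in Cd roots (log2 0.98 ± 0.0439, edgeR adjusted p = 3.01e-16). The tricarboxylic acid cycle, which feeds this chain, divided into 30 higher and 27 lower of 71 (median 0.01).

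Sterols stabilise membranes, and 33 of 44 genes of their synthesis were called higher and 5 lower (median 0.64). GLYMA_09G196000, a hydroxymethylglutaryl-CoA reductase that commits carbon to the pathway, had 69.7, 70.7 and 71.0 FPKM in the Cd+OP roots and 35.4, 34.4 and 36.3 FPKM in the Cd roots (log2 fold change 0.92 ± 0.0315, edgeR adjusted p = 1.13e-18). The methyltransferase GLYMA_04G020600 fell to 50.3 ± 2.40 FPKM in Cd+OP roots, against 69.0 ± 2.45 FPKM in Cd roots (log2 -0.53 ± 0.0380, edgeR adjusted p = 5.00e-12). CYP93E1 (GLYMA_08G350800), an oxidase of soybean triterpenoid saponins, which share sterol precursors, rose to 42.2 ± 3.73 FPKM in Cd+OP roots, against 5.67 ± 0.171 FPKM in Cd roots (log2 2.82 ± 0.0525, edgeR adjusted p = 5.11e-24). These levels stayed below the 146 ± 3.70 FPKM of control+OP and 106 ± 4.41 FPKM of control roots.

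Aquaporins let water cross membranes. In their list 26 of 35 tested members were called higher and 6 lower in Cd+OP, with a median log2 fold change of 1.06, and the summed level of all 53 members was 2949.5 to 3074 FPKM in Cd+OP libraries and 1494 to 1513 FPKM in Cd libraries, beside 3515 to 3697 FPKM in control+OP and 4245 to 4602 FPKM in control. The vacuolar-membrane channel GLYMA_01G208200 had 300.4, 307 and 314 FPKM in the Cd+OP roots and 126, 124 and 132 FPKM in the Cd roots (log2 fold change 1.2 ± 0.0337, edgeR adjusted p = 1.97e-20). GLYMA_14G061500, the most abundant of those named, had 540.4 ± 14.6 FPKM in Cd+OP roots and 314 ± 4.86 FPKM in Cd roots (log2 0.71 ± 0.0302, edgeR adjusted p = 1.14e-16). GLYMA_02G073700 was a water channel called at least 2-fold lower in Cd+OP than in each other group, with 1.90, 2.32 and 2.71 FPKM in Cd+OP roots, 4.73, 5.35 and 4.37 FPKM in Cd roots, 7.21 ± 0.854 FPKM in control+OP and 7.69 ± 0.714 FPKM in control (log2 -1.13 ± 0.131 against Cd, edgeR adjusted p = 3.60e-08).

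Metal transporters leaned downward. Of 100 tested members 48 were called lower and 21 higher (median -0.18), mostly by less than 2-fold, since 6 rose and 12 fell by that much. The iron and manganese transporter GLYMA_08G181900, of a class of carriers by which cadmium can also move, had 14.6, 13.8 and 14.3 FPKM in the Cd+OP roots and 52.2, 55.8 and 49.1 FPKM in the Cd roots (log2 fold change -1.95 ± 0.0755, edgeR adjusted p = 1.57e-17). Groups were well separated, and roots without cadmium had 4.19 ± 0.173 FPKM in control+OP roots and 5.42 ± 0.433 FPKM in control roots. The copper-binding transporter GLYMA_01G219000 fell to 60.6 ± 1.13 FPKM in Cd+OP roots, against 99.6 ± 2.23 FPKM in Cd roots (log2 -0.79 ± 0.0324, edgeR adjusted p = 5.34e-17), and the zinc transporter GLYMA_20G063100 had 1.69 ± 0.153 FPKM in Cd+OP roots and 7.87 ± 0.373 FPKM in Cd roots (log2 -2.28 ± 0.155, edgeR adjusted p = 1.50e-12). In the other direction, the zinc transporter GLYMA_13G338300 had 115 ± 3.35 FPKM in Cd+OP roots and 76.0 ± 1.45 FPKM in Cd roots (log2 0.52 ± 0.0352, edgeR adjusted p = 1.30e-12) and the copper transporter GLYMA_07G141600 10.1 ± 1.73 FPKM in Cd+OP roots and 1.38 ± 0.506 FPKM in Cd roots (log2 2.77 ± 0.238, edgeR adjusted p = 1.42e-10).

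Genes annotated with response to cadmium or with metal chelation were called higher in 17 of 30 and lower in 8 (median 0.43). GLYMA_18G045200, annotated with response to cadmium ion, had 137, 138 and 143 FPKM in the Cd+OP roots and 46.4, 49.1 and 48.7 FPKM in the Cd roots (log2 fold change 1.46 ± 0.0379, edgeR adjusted p = 3.94e-21). Control roots, at 181 ± 10.6 FPKM, exceeded both groups. GLYMA_08G175400, a synthase of the metal chelator nicotianamine, fell to 8.63 ± 0.266 FPKM in Cd+OP roots, against 20.4 ± 1.98 FPKM in Cd roots (log2 -1.31 ± 0.107, edgeR adjusted p = 5.58e-11).

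Glutathione is the thiol from which plants build cadmium-binding peptides, and glutathione transferases attach it to toxic compounds. Transferase genes were called higher in 32 of 69 and lower in 21 (median 0.15). GLYMA_07G140400 had 224, 229.7 and 231 FPKM in the Cd+OP roots and 100.5, 97.7 and 93.3 FPKM in the Cd roots (log2 fold change 1.16 ± 0.0350, edgeR adjusted p = 8.48e-20), while GLYMA_08G175200 fell to 116 ± 2.64 FPKM in Cd+OP roots, against 228 ± 5.88 FPKM in Cd roots (log2 -1.04 ± 0.0444, edgeR adjusted p = 1.14e-16). In sulfur assimilation and thiol synthesis, 33 of 81 were called higher and 29 lower. GLYMA_10G172700, a cystathionine enzyme of methionine and cysteine metabolism, had 227, 223 and 240.1 FPKM in the Cd+OP roots and 56.1, 51.0 and 54.6 FPKM in the Cd roots (log2 fold change 2.02 ± 0.0380, edgeR adjusted p = 6.17e-24), and the cysteine synthase GLYMA_03G244800 had 56.2 ± 0.261 FPKM in Cd+OP roots and 102 ± 1.24 FPKM in Cd roots (log2 -0.94 ± 0.0322, edgeR adjusted p = 1.30e-18).

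Enzymes that remove reactive oxygen were called higher in 29 of 50 and lower in 11 (median 0.37). The superoxide dismutase gene SODB (GLYMA_20G196900) had 228, 227 and 229.6 FPKM in the Cd+OP roots and 119, 119.7 and 112 FPKM in the Cd roots (log2 fold change 0.89 ± 0.0338, edgeR adjusted p = 9.74e-18), and the catalase gene CAT4 (GLYMA_04G017500) fell to 17.6 ± 0.235 FPKM in Cd+OP roots, against 35.4 ± 0.678 FPKM in Cd roots (log2 -1.08 ± 0.0438, edgeR adjusted p = 3.72e-17). Phosphate transport and starvation genes were lower in 23 of 37 and higher in 7 (median -0.49). The phosphate transporter GLYMA_10G006700 had 34.9 ± 1.31 FPKM in Cd+OP roots and 56.4 ± 1.72 FPKM in Cd roots (log2 -0.77 ± 0.0389, edgeR adjusted p = 4.44e-15). GLYMA_10G183300, whose annotation includes inositol hexakisphosphate binding, rose to 47.8 ± 1.01 FPKM in Cd+OP roots, against 21.7 ± 0.637 FPKM in Cd roots (log2 1.07 ± 0.0377, edgeR adjusted p = 2.35e-18).

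Soybean roots make isoflavonoids, which act as defence compounds and as signals to rhizobia, from phenylalanine by way of cinnamate hydroxylase, chalcone synthase, chalcone isomerase and isoflavone synthase. Over this pathway 27 of 72 tested members were called higher and 36 lower in Cd+OP, with a median log2 fold change of -0.11. CYP73A11 (GLYMA_02G236500), a cinnamate hydroxylase, had 91.6, 93.4 and 98.7 FPKM in the Cd+OP roots and 388, 376 and 394 FPKM in the Cd roots (log2 fold change -2.10 ± 0.0357, edgeR adjusted p = 8.34e-25). Paralogs of the next enzymes moved in opposite directions. Chalcone synthase CHS7 (GLYMA_01G228700) fell to 375 ± 6.46 FPKM in Cd+OP roots, against 812 ± 13.3 FPKM in Cd roots (log2 -1.19 ± 0.0289, edgeR adjusted p = 1.04e-21), whereas CHS1 (GLYMA_08G109400) rose to 149 ± 0.346 FPKM in Cd+OP roots, against 66.9 ± 3.05 FPKM in Cd roots (log2 1.08 ± 0.0329, edgeR adjusted p = 9.41e-20).

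Chalcone isomerases CHI1A (GLYMA_20G241500) and CHI1B1 (GLYMA_20G241600) are adjacent by their gene numbers on chromosome 20. CHI1A had 81.3, 79.4 and 78.7 FPKM in the Cd+OP roots and 169, 168 and 161 FPKM in the Cd roots (log2 fold change -1.13 ± 0.0329, edgeR adjusted p = 4.19e-20), and CHI1B1 had 81.5, 87.4 and 82.6 FPKM in the Cd+OP roots and 30.2, 28.2 and 30.0 FPKM in the Cd roots (log2 fold change 1.44 ± 0.0389, edgeR adjusted p = 9.21e-21). The groups did not overlap in either gene, and the order was reversed between them. Isoflavone synthase IFS2 (GLYMA_13G173500), the branch point to isoflavonoids, fell to 268 ± 1.60 FPKM in Cd+OP roots, against 385 ± 3.65 FPKM in Cd roots (log2 -0.59 ± 0.0299, edgeR adjusted p = 3.54e-15). Similar copies can share reads here too.

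Autophagy, the bulk breakdown of cell contents, had 79 of 149 genes called lower and 23 higher (median -0.22). By at least 2-fold 6 fell and 0 rose, beside 5.21% and 14.5% of all genes tested. The share that fell this far was not above that over all genes, so the downward lean lay in smaller changes. GLYMA_03G182800, an ATPase that also serves the removal of misfolded proteins from the endoplasmic reticulum, had 47.4, 49.2 and 47.8 FPKM in the Cd+OP roots and 86.7, 87.4 and 84.6 FPKM in the Cd roots (log2 fold change -0.91 ± 0.0301, edgeR adjusted p = 5.39e-19), and GLYMA_19G183400, with the same terms, had 56.0 ± 1.70 FPKM in Cd+OP roots and 81.7 ± 0.441 FPKM in Cd roots (log2 -0.62 ± 0.0329, edgeR adjusted p = 1.15e-14). Proteasome genes were called lower in 78 of 195 and higher in 48 (median -0.06), but limma on log2(FPKM + 1) called 60 lower and 65 higher (median 0.01). Heat shock and chaperone genes showed no lean (109 higher and 103 lower of 285), although the abundant chaperone GLYMA_03G171100 fell to 359.8 ± 4.15 FPKM in Cd+OP roots, against 687 ± 5.10 FPKM in Cd roots (log2 -1.0 ± 0.0271, edgeR adjusted p = 8.71e-21), and the small heat shock gene HSP17.3-B (GLYMA_08G069000) had 0.294 ± 0.123 FPKM in Cd+OP roots and 2.54 ± 0.488 FPKM in Cd roots (log2 -3.13 ± 0.296, edgeR adjusted p = 8.40e-10).

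Fermentation regenerates NAD when oxygen is short, through pyruvate decarboxylase and alcohol dehydrogenase. In the low oxygen list 18 of 38 genes were called higher and 17 lower (median 0.27, or 0.16 without the third Cd library). The alcohol dehydrogenase GLYMA_04G213900, whose terms also include formaldehyde breakdown, had 30.2, 31 and 30.9 FPKM in the Cd+OP roots and 149, 151 and 140.1 FPKM in the Cd roots (log2 fold change -2.33 ± 0.0385, edgeR adjusted p = 5.18e-25), and GLYMA_14G121200 fell to 47.1 ± 3.02 FPKM in Cd+OP roots, against 143 ± 2.48 FPKM in Cd roots (log2 -1.68 ± 0.0414, edgeR adjusted p = 1.45e-21). The pyruvate decarboxylase GLYMA_01G118000 had 5.34 ± 0.102 FPKM in Cd+OP roots and 21.0 ± 0.213 FPKM in Cd roots (log2 -2.04 ± 0.0553, edgeR adjusted p = 9.32e-21). The most abundant alcohol dehydrogenase gene named here, GLYMA_06G122600, differed in the other direction, with 419.6 ± 9.61 FPKM in Cd+OP roots and 309.9 ± 21.0 FPKM in Cd roots (log2 0.36 ± 0.0385, edgeR adjusted p = 6.54e-09). Mean levels in control roots were above both groups, at 259 ± 11.4, 161 ± 7.67 and 1244 ± 40.6 FPKM for the 3 dehydrogenases in that order. Glycolysis, which supplies their substrate, was called lower in 47 of 107 and higher in 28 genes. The enolase GLYMA_09G153900 had 108 ± 2.20 FPKM in Cd+OP roots and 208 ± 5.12 FPKM in Cd roots (log2 -1.01 ± 0.0303, edgeR adjusted p = 6.84e-20).

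Further wall and nutrient lists held members of both directions. Chitinases and glucanases, which cut microbial and plant wall polymers, were called higher in 39 of 73 and lower in 22 (median 0.33). Xyloglucan transferases, which cut and rejoin wall chains, were higher in 25 of 51 and lower in 21, and pectinesterases, which stiffen or loosen pectin, in 19 of 44 and 20. For nitrogen uptake and assimilation the counts were 14 higher and 13 lower of 36, and for sugar transport 35 and 37 of 101. Root development genes were called higher in 34 of 87 and lower in 30 (median 0.03).

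**Figure D3:**
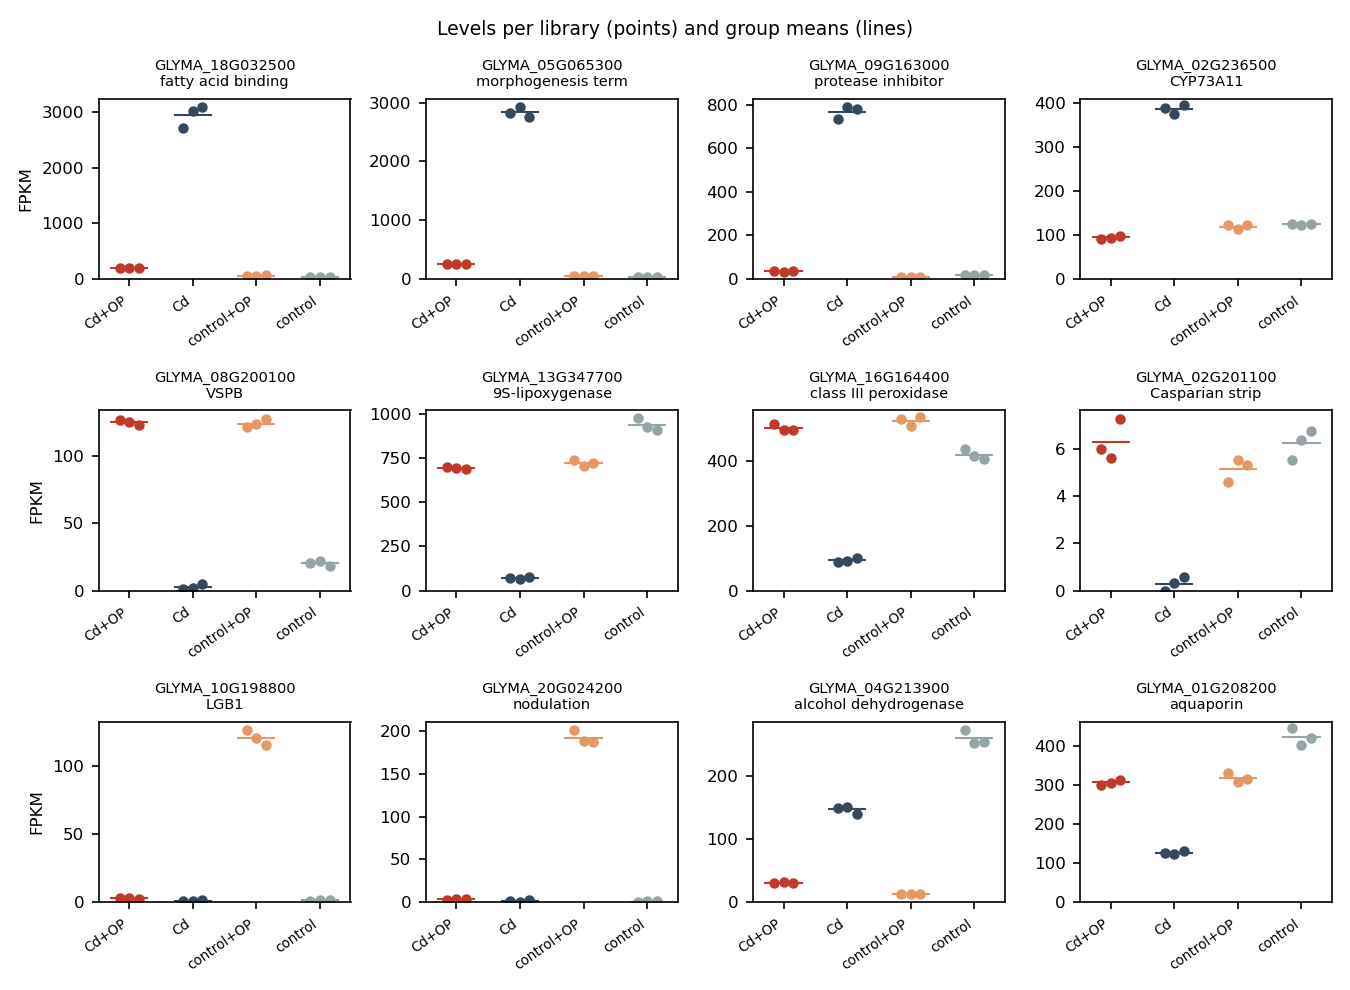
FPKM of 12 genes in each library (points) with group means (lines), groups from left to right Cd+OP, Cd, control+OP and control, each panel on its own linear axis from 0. In the top row the Cd libraries stand above all others, as with GLYMA_18G032500 and GLYMA_05G065300, and in the second row they stand below. LGB1 and GLYMA_20G024200 stand out in control+OP alone.

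Some nodulation genes moved far less with the bacterium under cadmium than without it, and others did not. Leghaemoglobins carry oxygen to the nitrogen-fixing bacteria of a nodule. LGB1 (GLYMA_10G198800, chromosome 10, 42995962 to 42997094) had 3.15, 2.63 and 2.56 FPKM in the Cd+OP roots and 1.02, 0.495 and 1.48 FPKM in the Cd roots (log2 fold change 1.39 ± 0.216, edgeR adjusted p = 3.56e-06). Without cadmium it had 127, 121 and 116 FPKM in the control+OP libraries and 0.982, 1.54 and 1.67 FPKM in the control libraries, a log2 fold change of 6.44 ± 0.159. The difference between the 2 changes was -5.05 ± 0.314 (edgeR adjusted p = 4.04e-13). The nodulation gene GLYMA_20G024200 had 2.41, 3.28 and 3.52 FPKM in the Cd+OP libraries, against 1.15, 0.615 and 2.60 FPKM in the Cd libraries (log2 fold change 1.0 ± 0.293, edgeR adjusted p = 0.00380). These groups overlapped, since the lowest Cd+OP library lay below the highest Cd library. Without cadmium the gene had 193 ± 7.33 FPKM in control+OP roots, against 0.585 ± 0.450 FPKM in control roots. For LBA (GLYMA_10G199100) the Cd+OP and Cd libraries also overlapped, at 0.569, 0.574 and 0.708 FPKM in Cd+OP roots and 0.249, 0.447 and 0.700 FPKM in Cd roots (log2 0.33 ± 0.352, edgeR adjusted p = 0.404). Its levels without cadmium were 33.3 ± 0.363 FPKM in control+OP roots and 0.164 ± 0.142 FPKM in control roots. LBA averaged less than 1 FPKM in every group but control+OP, so it passed the level filter only through that group. The test of the difference of its changes is therefore not used here. Leghaemoglobin copies are alike and can share reads.

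Of the 29 tested genes of the leghaemoglobin and nodulin list, 16 were called higher and 6 lower in Cd+OP than in Cd roots, with a median of 1.10, which was 0.64 without the second Cd library and 1.66 without the third. For control+OP against control, where 61.8% of all genes were called (34.6% higher and 27.2% lower), 21 were higher and 6 lower, with a median of 4.44. The test of the difference, which called 33.4% of all genes positive and 30.4% negative, called 4 members positive and 22 negative. Some members passed the level filter only through control+OP. GLYMA_19G074000, for example, had means of 0.106, 0.126, 9.97 and 0.02 FPKM in Cd+OP, Cd, control+OP and control roots. For such members the filter itself favoured a rise in control+OP and a negative difference, so these counts and the median are a description only. The list's summed level was 706 to 731 FPKM in Cd+OP, 551 to 568 FPKM in Cd, 1868 to 1939 FPKM in control+OP and 1368 to 1464 FPKM in control libraries. The largest single part of the sum in Cd+OP roots was the oxygen carrier GLYMA_11G121800, at 330.5, 218, 92.1 and 647 FPKM in the same order of groups. The sucrose synthase SS (GLYMA_13G114000) had 163, 72.3, 189 and 472 FPKM in that order. In control roots most of the sum came from these 2 genes, and LGB1 had a mean of 1.4 FPKM there. The summed level therefore does not follow the leghaemoglobin genes that rose in control+OP roots. For some members the difference between the 2 changes was not called, such as the nodulation gene GLYMA_01G028500. It had 17.5 ± 0.937 FPKM in Cd+OP roots and 2.20 ± 0.732 FPKM in Cd roots (log2 2.91 ± 0.115, edgeR adjusted p = 2.27e-17) and 58.2 ± 2.54 FPKM in control+OP roots and 9.33 ± 0.645 FPKM in control roots, and its 2 changes differed by 0.27 ± 0.151 (edgeR adjusted p = 0.124).

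**Figure D4:**
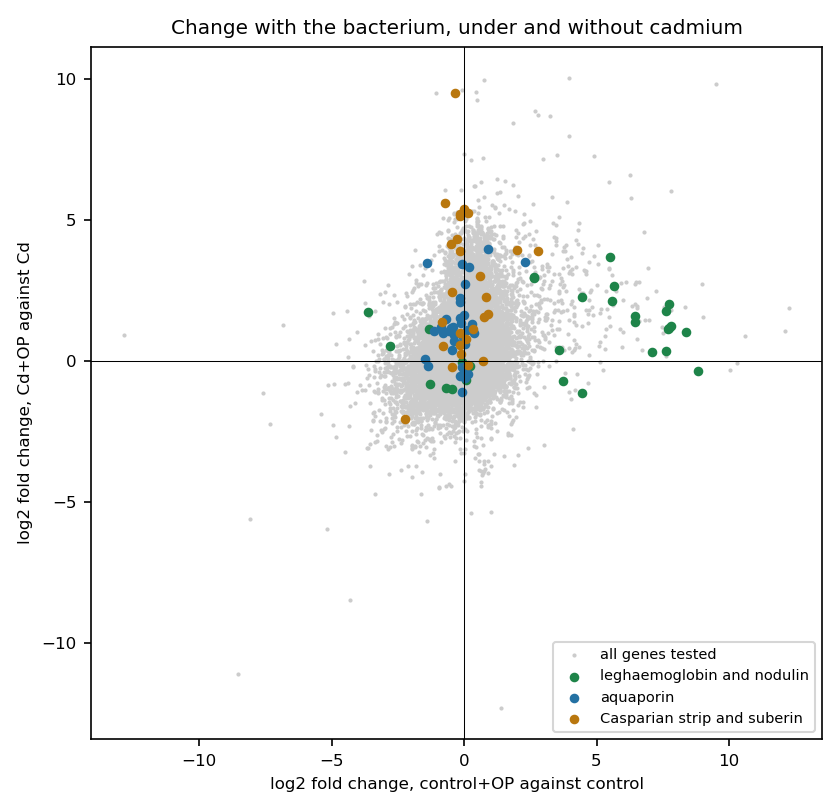
Log2 fold change of each tested gene for Cd+OP against Cd (vertical axis) and control+OP against control (horizontal axis), 2 comparisons that share no library. Most nodule list genes (green) lie to the right, up to 8.82 on the horizontal axis. The gene at 8.82, GLYMA_19G074000, passed the level filter only through control+OP. Aquaporin (blue) and Casparian strip and suberin genes (orange) rise mainly along the vertical axis, with medians of 1.06 and 2.26. Extreme values of genes at or near 0 in a group depend on the prior count of the fit.

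The effect of the bacterium could be set beside its effect without cadmium, since those 2 comparisons share no library. Of the 4410 genes at least 2-fold higher in Cd+OP than in Cd roots, 746 (16.9%) were also at least 2-fold higher in control+OP than in control roots, which is 44.8% of the 1667 such genes (5.49% of those tested). Of the 1580 genes at least 2-fold lower under cadmium, 499 (31.6%) were at least 2-fold lower without it, or 23.6% of 2114 (6.97% of those tested). Opposite directions were found for 220 genes higher under cadmium and lower without it, 4.99% of the 4410 beside 6.97% of all genes tested. They were also found for 82 genes lower under cadmium and higher without it, 5.19% of the 1580 beside 5.49% of all genes tested. Neither share lay above that over all genes. The difference of the 2 changes itself was called for 19381 of 30340 genes (63.9%), 10143 positive and 9238 negative.

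Over all genes tested, 34.6% were called higher and 27.2% lower in control+OP than in control roots. The difference of the 2 changes was called positive for 33.4% and negative for 30.4%. The water channels were among the lists that differed between the 2 settings. Against a median of 1.06 under cadmium stood -0.13 without it, with 6 genes called higher and 16 lower, and the difference was called positive for 29 and negative for 6 of 35. Casparian strip and suberin genes had a median of 2.26 under cadmium and -0.14 without it, with 22 positive and 2 negative differences among 27. Kinesins rose in both settings, in 91 and 72 of 120 genes, with medians of 1.24 and 0.32. Ribosomal protein genes were counted at 379 and 378 higher of 583, with medians of 0.28 and 0.25. The low oxygen list had a median of 0.27 under cadmium (0.16 without the third Cd library) and -0.83 without it.

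As a description of single genes, among those with an annotation that averaged 5 FPKM or more, 80 changed at least 2-fold in opposite directions, 58 higher under cadmium and 22 lower. They are part of the 220 and 82 genes given above, whose shares did not lie above those over all genes. The aquaporin GLYMA_08G203000 had 14.1, 14.2 and 13.9 FPKM in the Cd+OP roots and 1.05, 1.41 and 1.13 FPKM in the Cd roots (log2 fold change 3.48 ± 0.110, edgeR adjusted p = 2.31e-19), and 12 ± 0.975 FPKM in control+OP roots, against 32 ± 1.97 FPKM in control roots. The aminotransferase GLYMA_01G131100 had 19.4, 18.5 and 17.9 FPKM in the Cd+OP roots and 2.73, 3.12 and 2.52 FPKM in the Cd roots (log2 fold change 2.66 ± 0.0849, edgeR adjusted p = 2.75e-19), and without cadmium 3.83 ± 0.374 FPKM in control+OP roots and 28.3 ± 1.07 FPKM in control roots. GLYMA_05G065200, in the chromosome 5 run, was the reverse case. It had 2.59, 2.15 and 2.64 FPKM in the Cd+OP roots and 32.2, 27.7 and 32.1 FPKM in the Cd roots (log2 fold change -3.71 ± 0.166, edgeR adjusted p = 3.32e-16), and 1.56 ± 0.406 FPKM in control+OP roots, against 0.418 ± 0.133 FPKM in control roots.

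A small number of genes set the combined treatment apart from all other groups. Among genes that averaged 5 FPKM or more, 30 were called at least 2-fold higher and 15 at least 2-fold lower in Cd+OP than in each of Cd, control+OP and control. In a fit limited to genes of that level, 6368 were called higher and 6506 lower than in Cd roots, by any fold. Against Cd alone and with no 5 FPKM limit, 4410 of the 30340 tested genes were called at least 2-fold higher and 1580 lower. No share over all genes is at hand for the 30 and 15, so they are a description of single genes. GLYMA_13G152900, which has no functional term but is listed under the enzyme class of medium-chain acyl-CoA ligases, had 28.5, 28.1 and 26.6 FPKM in the Cd+OP roots and 4.86, 4.48 and 4.96 FPKM in the Cd roots (log2 fold change 2.47 ± 0.0700, edgeR adjusted p = 2.35e-20), and 6.38 ± 0.178 FPKM in control+OP roots and 6.24 ± 0.548 FPKM in control roots. GLYMA_10G170900, a protein phosphatase, had 23.7 ± 2.11 FPKM in Cd+OP roots, and 5.83 ± 0.818, 8.13 ± 1.98 and 7.31 ± 0.625 FPKM in Cd, control+OP and control roots. GLYMA_13G251700 and GLYMA_13G252300, both annotated with extracellular space and defense response, had 33.8 ± 1.28 and 26.2 ± 0.799 FPKM in Cd+OP roots, against 12.3 ± 1.01 and 9.84 ± 1.04 FPKM in Cd roots. GLYMA_10G045200, annotated with response to chitin, a fungal wall polymer, had 15.3 ± 1.09 FPKM in Cd+OP roots and 5.39 ± 0.767 FPKM in Cd roots (log2 1.43 ± 0.158, edgeR adjusted p = 1.35e-08). On the low side stood GLYMA_19G142400, an adenylosuccinate synthase of purine synthesis, with 3.79 ± 0.662 FPKM in Cd+OP roots and 9.24 ± 1.17 FPKM in Cd roots (log2 -1.36 ± 0.115, edgeR adjusted p = 1.10e-10), and GLYMA_01G170300, with a protein disulfide reductase term, with 2.61 ± 0.112 FPKM in Cd+OP roots and 9.75 ± 0.348 FPKM in Cd roots (log2 -1.96 ± 0.158, edgeR adjusted p = 4.23e-11).

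Some neighbouring genes moved together. There were 33 runs of at least 3 tested genes, consecutive by start position, that all changed at least 4-fold in 1 direction, 26 higher and 7 lower. Some genes of these runs overlap by position. Over all 30340 tested genes, 1790 were called at least 4-fold higher and 254 lower, and most of these lie outside such runs. A lower run on chromosome 6 (46768243 to 46778881) depends on GLYMA_06G276600. That gene had 65.7, 0 and 0 FPKM in the Cd libraries and 0 in all 3 Cd+OP libraries, so its call rests on 1 library. Besides those already described, 3 methyltransferase genes on chromosome 6 (47465164 to 47530582) rose, the most abundant of which, GLYMA_06G286600, had 112, 108 and 108 FPKM in the Cd+OP roots and 18.5, 15.5 and 17.7 FPKM in the Cd roots (log2 fold change 2.60 ± 0.0484, edgeR adjusted p = 5.22e-24). On chromosome 11, 3 glycosyl hydrolase genes (9864310 to 9882654) rose by 2.02 to 2.79 on the log2 scale, GLYMA_11G129800 to 65.2 ± 0.385 FPKM in Cd+OP roots, against 12.8 ± 1.73 FPKM in Cd roots. On chromosome 15, 3 genes annotated with extracellular space and defense response (4800588 to 4818233) rose, GLYMA_15G062400 with 38.8 ± 1.96 FPKM in Cd+OP roots and 3.63 ± 0.542 FPKM in Cd roots (log2 3.34 ± 0.0862, edgeR adjusted p = 3.54e-21). On chromosome 16, 4 genes without annotation (6948341 to 6991203) rose under cadmium, by 2.28 to 3.92, while the same 4 genes fell without it. GLYMA_16G069500 had 103 ± 5.52 FPKM in Cd+OP roots and 20.2 ± 2.14 FPKM in Cd roots (log2 2.28 ± 0.0566, edgeR adjusted p = 1.70e-21), and 43.6 ± 1.90 FPKM in control+OP roots, against 193 ± 1.81 FPKM in control roots (log2 -2.14 ± 0.0539, edgeR adjusted p = 3.17e-21). On chromosome 5, 3 genes between 31747856 and 31767866 fell, GLYMA_05G123900, an inhibitor of pectin-cutting polygalacturonases, to 35.6 ± 1.52 FPKM in Cd+OP roots, against 187 ± 1.79 FPKM in Cd roots (log2 -2.46 ± 0.0446, edgeR adjusted p = 2.98e-24).

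Lists taken as markers of other organs also differed between the groups. Photosystem and antenna genes, which mark green tissue, summed to 171 to 177 FPKM over 209 genes in Cd+OP libraries and 132 to 133 FPKM in Cd libraries, with 12 listed at 0 in all 6. Of 52 tested, 24 were called higher and 5 lower. The sum was higher still in roots without cadmium, at 207 to 213 FPKM in control+OP and 285 to 306 FPKM in control libraries. Seed storage and nutrient reservoir genes, which include the vegetative storage proteins, summed to 1087 to 1098 FPKM in Cd+OP and 414 to 435 FPKM in Cd libraries over 103 genes, 14 of them at 0 in all 6, with 31 of 45 called higher and 5 lower. The nutrient reservoir term is also given to cell wall and apoplast genes such as GLYMA_07G038700, so this list does not mark seed tissue alone. Their part in the other results was not tested.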

How the data were processed

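Root RNA (TRIzol) was sequenced on an Illumina NovaSeq, per the labels' protocols. The deposited table gives FPKM values and whole-number counts per gene and library, per the file headers. The deposited counts behave as estimated counts rather than a plain tally, with an excess of multiples of 4. Nothing on aligner, counter, strandedness or build was given in the sources used here. Of 48401 protein-coding genes the table calls 47876 hypothetical and gives 105 a symbol, so gene lists rest on annotation terms.

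Genes that averaged 1 FPKM or more over the 12 libraries entered edgeR 4.0.16 (R 4.3.3; quasi-likelihood, TMM, 1 mean per group over all 12 libraries), two-sided, with Benjamini-Hochberg adjustment over 30340 genes at 0.05. The code was checked on simulated counts. A standard error is the log2 fold change divided by the root of F, and other errors are SDs (n = 3). On counts divided by 4, median chi-square between libraries of the Cd+OP group or of the Cd group was 0.548 to 0.627 (0.455 from sampling alone, mean 1.31 to 2.05). The value depends on that divisor, so it cannot tell whether libraries of a group are repeats of 1 sample. None was set aside as a repeat. Named genes were the 10 largest changes each way, the 4 most abundant called members of each list, the 6 most abundant of at least 2-fold each way, those with symbols, those apart from all groups and those of opposite sign; extremes of lists and runs of neighbours were added after values were seen. Members and lists were chosen with earlier results of these data known. Alternatives were DESeq2 1.42.0, limma 3.58.1 on log2(FPKM + 1) or log2(FPKM + 0.1), other scaling and filters, counts divided by 4, a replicate block and single libraries left out.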

Additional observations from a re-analysis of the deposited data

Results flagged for a closer look

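The following genes were picked out because the change with the bacterium under cadmium differed from the change without it, by the test of that difference in the edgeR fit over 12 libraries. Values are differences of log2 fold changes, (Cd+OP against Cd) minus (control+OP against control). Among the annotated genes of opposite directions the differences were 5.54 for GLYMA_01G131100, an aminotransferase, 5.05 for GLYMA_20G098500, a photosystem II calcium-binding gene, and 4.88 for the aquaporin GLYMA_08G203000. They were -5.58 for GLYMA_05G065200, annotated with anatomical structure development, -5.57 for GLYMA_17G073400, an electron transfer gene with a nodulation term, and -5.05 for GLYMA_06G269700, a thiamine synthesis gene. GLYMA_17G073400 had 2.32 ± 0.403 FPKM in Cd+OP roots and 4.88 ± 0.530 FPKM in Cd roots, and 34.2 ± 1.27 FPKM in control+OP roots and 1.57 ± 0.477 FPKM in control roots. GLYMA_06G269700 had 2.18 ± 0.446, 4.46 ± 0.220, 24.4 ± 0.517 and 1.58 ± 0.281 FPKM in the same order, and GLYMA_20G098500 had 6.53 ± 0.125, 3.06 ± 0.333, 1.61 ± 0.141 and 26.4 ± 0.991 FPKM. Among nodule genes with a symbol the differences were -5.05 for LGB1 (GLYMA_10G198800), -7.29 for LBA (GLYMA_10G199100) and -3.47 for GMN16 (GLYMA_02G265200), a gene of the membrane around nodule bacteria. LBA passed the level filter only through control+OP, so its difference is a description only. GMN16 had 2.33 ± 0.317, 0.504 ± 0.572, 59.2 ± 1.01 and 1.23 ± 0.574 FPKM in Cd+OP, Cd, control+OP and control roots. Groups of 3 libraries are too small to test for a library far from its group.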

How the results depend on the processing

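Of 3505 alternatives over the 234 genes that the naming rule took, 3477 kept direction and call, 28 kept direction but lost the call, and 0 reversed. Of those 28, 22 came from limma on log2 FPKM. Counts of genes called moved by over 1.5 times only when a mean of at least 5 FPKM was required, where fewer genes are tested. They were then 6368 higher and 6506 lower for Cd+OP against Cd, 5668 higher for control+OP against control, 6586 positive and 5236 negative for the difference of the 2 effects, 4833 higher for Cd+OP against control, and 6020 higher and 7181 lower for Cd against control. Leaving out 1 Cd+OP or Cd library gave 10559 to 10662 genes higher and 9953 to 10117 lower for Cd+OP against Cd. Libraries of the other groups were left out in turn as an alternative chosen after seeing the data.

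No pairing by replicate number was seen, as deviations of same-numbered Cd+OP and Cd libraries correlated at 0.00265, 0.0137 and 0.0116. Deviations that are mostly sampling noise would also correlate near 0. This check therefore cannot tell whether same-numbered libraries were handled together. With the replicate block 11021 genes were higher and 10424 lower for Cd+OP against Cd. Medians of 12 of the 47 lists changed sign under at least 1 alternative: Casparian strip and suberin and lignin and laccase, and 10 with medians near 0 (abscisic acid, cellulose synthase, gibberellin, heat shock, isoflavonoid, pectinesterase, proteasome, sugar transport, sulfur and TCA cycle). At 5 FPKM the cellulose synthase median was -0.45, that of sulfur 0.04 and that of gibberellin 0.28. On log2(FPKM + 1), which understates changes of low genes, the kinesin median was 0.79 and that of metal transport -0.09. Low levels limit depth, so folds of genes near 0 FPKM depend on the prior count.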
